A study of Mus musculus with 93 samples.

Results

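The septins are a family of 10 genes in this data set, chosen because a spreadsheet had turned their symbols into dates: Sept2, Sept3, Sept4, Sept5, Sept6, Sept7, Sept8, Sept9, Sept10 and Sept11 stand in the count table as 2-Sep to 11-Sep. They were 10 of 24514 gene symbols, of which 25 have a date-like form. The members were selected on their symbols and on their CPM (read counts scaled to a common library size) in the 4 groups of the study, so their levels and differences are given below as a description, without p-values. Another 3 septin symbols in the table, those of Sept1, Sept12 and Sept14, fell outside the choice. A further symbol, 15-Sep, is that of the selenoprotein Sep15 and not of a septin.

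Septins are GTP-binding proteins that join end to end into rods and then into filaments and rings at the cell cortex. They are known as a scaffold of the cleavage furrow in dividing cells and as a partner of actin, microtubules and membranes in cells that change shape. Homology subgroups take different places in a rod: the Sept2 group (here Sept2, Sept4 and Sept5), the Sept6 group (Sept6, Sept8, Sept10 and Sept11), Sept7 alone, and the Sept3 group (Sept3 and Sept9).

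RNA was sequenced from pools of 10 sorted cells per plate well, from mice and from an embryonic stem cell line that both carry Hcn4-GFP, Tbx1-Cre and the Cre-activated red reporter Ai9. GFP marks cells in which Hcn4 is active, a gene of the first heart field, and RFP marks cells in which Tbx1-Cre was active at any earlier time, and their descendants, which are mostly of the second heart field. The embryo groups held 5 GFP+ and 4 RFP+ libraries, from embryos of day 8.5 by the sample titles and E7.75 by the protocol. The spheroid groups held 38 GFP+ and 46 RFP+ libraries from cardiac spheroids at day 5.5 of differentiation. No label ties a well to an embryo or a culture, so the spread between wells may be technical. Spheroid RFP+ wells lay in plate columns 1 to 6 and spheroid GFP+ wells in columns 7 to 11. Embryo libraries lay in columns 11 and 12, GFP+ wells in rows A to E and RFP+ wells in rows F to H. Population and plate position therefore cannot be told apart in either source. Within each population, embryo and spheroid libraries lay in different columns, so source and plate column cannot be told apart either.

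Total counts per library ran from 445071 to 5658880, apart from spheroid GFP+ well C9 with 6288. Between 6189 and 8302 genes had a read in the embryo GFP+ libraries, against 10263 to 13052 in the embryo RFP+ libraries. Hcn4 had reads in 5 of 5 embryo and 37 of 38 spheroid GFP+ libraries, and Tbx1 had none in embryo GFP+ cells and reads in 3 of 4 embryo and 41 of 46 spheroid RFP+ libraries. The summed level of 6 cardiomyocyte markers was 14123 to 40636 CPM in embryo GFP+ libraries and 686 to 1497 CPM in embryo RFP+ libraries, while its median was 12.5 CPM in spheroid GFP+ and 34.4 CPM in spheroid RFP+ wells. Blood markers summed to 1153 CPM in embryo RFP+ well F12 and to 0 in the other 3 embryo RFP+ libraries, and the lists for endothelium and endoderm had medians of at most 67.5 and 9.37 CPM in any group. Pluripotency markers (3 genes) had a median sum of 132 CPM in spheroid GFP+ wells, with a range of 19.5 to 1452 CPM, against 21.9 CPM in spheroid RFP+ wells, with a range of 4.22 to 504 CPM. Neural markers (4 genes) had a median sum of 0 in embryo GFP+ libraries, where 3 of the 4 were at 0, against 38.4 CPM in embryo RFP+ libraries. The part of any of these markers in the septin values was not tested.

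The nucleotide-binding loop shows what the members share. Each septin carries a coding stretch of 24 bases for this loop (the P-loop, or Walker A motif), read from the longest complete coding transcript of GENCODE M21 on GRCm38, 5′ to 3′ on the gene's strand, with the 12 bases that are identical in all 10 septins in capitals.
Sept2: GGtgAatctGGtcTaGGaAAaTCa
Sept4: GGagAatctGGtcTgGGtAAaTCc
Sept5: GGtgAgtccGGccTgGGgAAgTCc
Sept6: GGggAgacaGGttTgGGcAAgTCc
Sept8: GGcgAaactGGgaTtGGcAAgTCc
Sept10: GGggAgactGGaaTtGGaAAaTCa
Sept11: GGtgAgacaGGtaTtGGcAAaTCc
Sept7: GGtgAatctGGacTgGGaAAgTCg
Sept3: GGccAgagtGGacTgGGcAAgTCa
Sept9: GGgcAgagcGGccTcGGgAAgTCc

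In all 10 genes the stretch crosses an exon-exon junction, so its genomic span holds an intron. In Sept2 it joins exons 3 and 4 within chr1:93491277-93495601 on the plus strand, and in Sept11 exons 2 and 3 within chr5:93139563-93148409 on the plus strand. In Sept6 it joins exons 2 and 3 within chrX:36966769-36975063 on the minus strand, and in Sept7 exons 3 and 4 within chr9:25265496-25277566 on the plus strand. Sept2 and Sept7 have 20 of the 24 bases in common, and Sept2 and Sept9 have 13. Over whole transcripts, among 78 pairs of the 13 septin genes, 3 pairs share any stretch of 36 bases, at most 20 such stretches (Sept2 with Sept7). Exons of Sept4 overlap Gm11492, and those of Sept5 overlap Gp1bb and Gm49601, all on the same strand, so reads there cannot be assigned to a septin alone.

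Over all 10 members, septin RNA summed to 3068 ± 361 CPM in embryo GFP+ cells (SD, n = 5), 2194 ± 249 CPM in embryo RFP+ cells (n = 4), 1921 ± 199 CPM in spheroid GFP+ cells (n = 38) and 2457 ± 165 CPM in spheroid RFP+ cells (n = 46). In bulk pools, fewer cells with a transcript and less of it per cell cannot be told apart. Sept2, Sept7 and Sept11 made up most of this sum in each group.

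Scaled to the length of each gene's merged exons, Sept2 had the highest mean level in all 4 groups, at 189 ± 11.9 CPM per kb in embryo GFP+ cells, 88.7 ± 7.57 in embryo RFP+ cells, 110 ± 14.5 in spheroid GFP+ cells and 102 ± 10.1 in spheroid RFP+ cells. Sept11 came second in embryo RFP+ cells at 80.8 ± 10.5 CPM per kb and in spheroid RFP+ cells at 90.0 ± 7.91, and in both groups its SD interval overlapped that of Sept2. Sept7 came second in embryo GFP+ cells at 81.6 ± 31.04 CPM per kb, ahead of Sept11 at 42.2 ± 12.5. In spheroid GFP+ cells Sept11 at 48.0 ± 8.78 CPM per kb and Sept7 at 37.98 ± 6.05 also overlapped, and they changed places when the length of the longest transcript was used (90.4 and 96.7 CPM per kb). Sept10 followed in all 4 groups, with means of 11.4 to 16.04 CPM per kb. With the longest transcript as length, Sept9 passed it in embryo GFP+ (17.95 against 16.8 CPM per kb) and embryo RFP+ cells (15.2 against 14.6), and Sept6 passed it in spheroid RFP+ cells (21.01 against 19.7). Means of Sept9, Sept8, Sept3 and Sept6 were between 0 and 11.5 CPM per kb, with neighbours in the order mostly within their spread, and Sept4 and Sept5 were at or below 1.67 CPM per kb in every group.

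**Figure D1:**
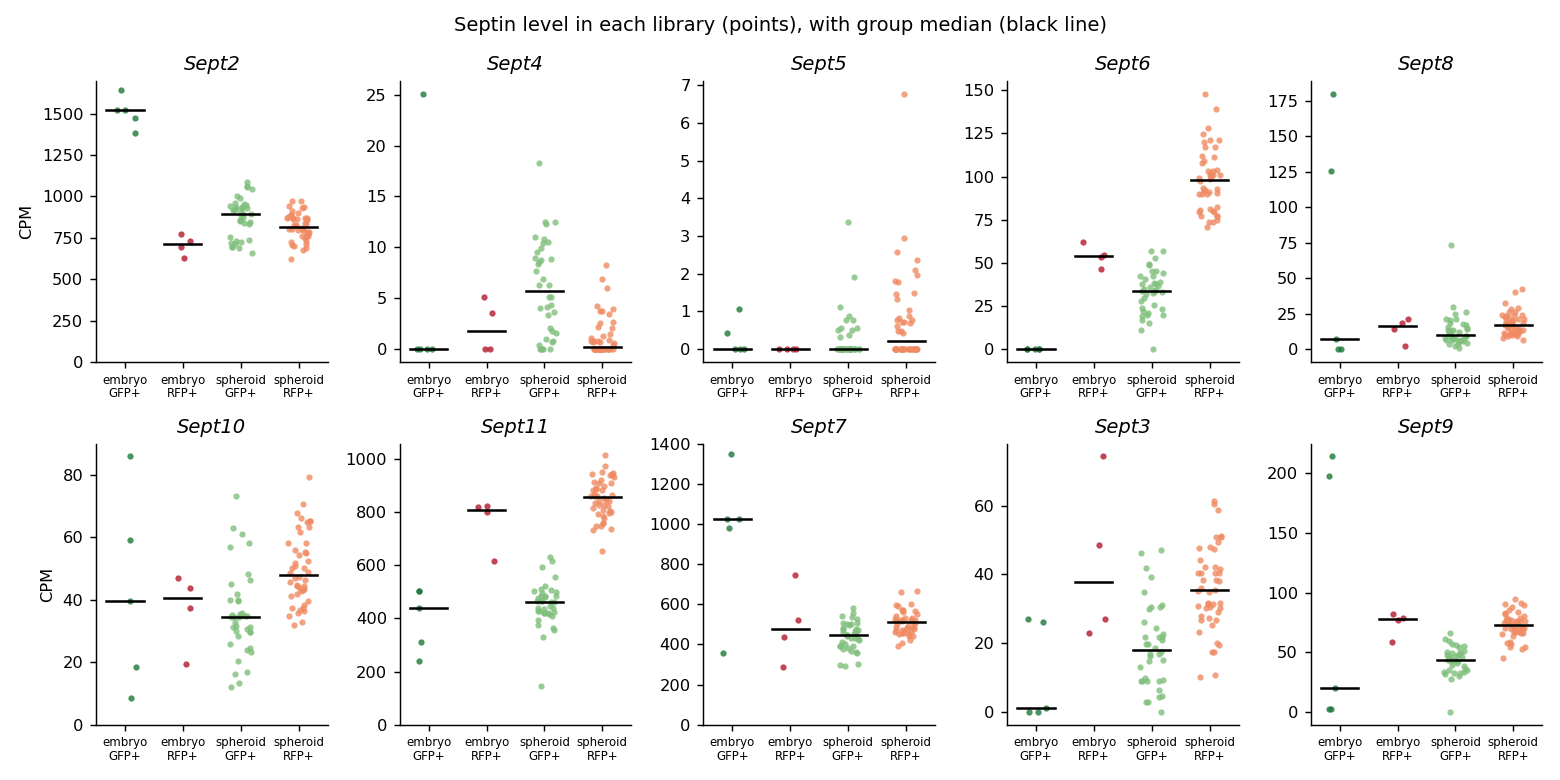
CPM of each of the 10 septins (vertical axis, scaled separately for each gene) in the embryo GFP+ (n = 5), embryo RFP+ (n = 4), spheroid GFP+ (n = 38) and spheroid RFP+ (n = 46) libraries, with a black line at each group's median. Sept2 stands apart in embryo GFP+ cells, Sept6 and Sept11 are higher in RFP+ cells of both sources, and Sept8 and Sept9 are scattered in embryo GFP+ cells.

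Sept2 (2-Sep in the table), the core member of its subgroup and known from stress fibers and the cleavage furrow, had means of 708 to 874 CPM in the other 3 groups and stood apart in embryo GFP+ cells, at 1511 ± 94.6 CPM. Its level there was 1525, 1474, 1521, 1385 and 1647 CPM in the 5 libraries (wells A12 to E12), and in the embryo RFP+ libraries it was 772, 732, 697 and 630 CPM (wells F12, G11, G12 and H11). The embryo groups did not overlap, and every embryo GFP+ library lay above all 84 spheroid libraries. Spheroid GFP+ wells ran from 660 through a median of 895 to 1089 CPM, and spheroid RFP+ wells from 619 through 815 to 973 CPM. Here the groups overlapped, with 32 of 38 GFP+ wells inside the RFP+ range. The fitted log2 fold change of RFP+ over GFP+ cells was -1.14 ± 0.17 (SE) in the embryo and -0.14 ± 0.04 in spheroids.

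Sept4, which is best known from sperm and as a binding partner of apoptosis inhibitors, had 58 reads in embryo GFP+ well B12 and none in the other 4 embryo GFP+ libraries. Of the 4 embryo RFP+ libraries 2 had reads of it, 7 and 5 in wells F12 and G11. In spheroids it had a mean of 5.96 ± 4.65 CPM in GFP+ and 1.28 ± 2.00 CPM in RFP+ wells, with 15 of 38 GFP+ wells above every RFP+ well. Sept5, a septin of synaptic vesicles and platelets, had no read in embryo RFP+ cells and at most 14 reads in any library.

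Sept11 (11-Sep) led the Sept6 subgroup, whose members sit next to Sept7 in the rod. In the 5 embryo GFP+ libraries it measured 312, 502, 505, 438 and 241 CPM, and in the 4 embryo RFP+ libraries 617, 822, 820 and 801 CPM. The embryo groups did not overlap, the lowest RFP+ value being that of well F12, the library with blood marker reads. Spheroid GFP+ wells ran from 147 through 462 to 630 CPM and RFP+ wells from 655 through 857 to 1015 CPM. The spheroid groups did not overlap either, and without well C9 the lowest GFP+ value was 330 CPM. The log2 fold change of RFP+ over GFP+ cells was 0.89 ± 0.27 in the embryo and 0.85 ± 0.04 in spheroids, and 0.99 ± 0.29 in the embryo without well F12.

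Sept6 (6-Sep), the member that gives the subgroup its name, had no read in any of the 5 embryo GFP+ libraries. In embryo RFP+ cells it had 85, 76, 55 and 76 reads, or 61.9, 53.4, 46.4 and 54.4 CPM. A limit of 3 reads per library came to 1.30 to 3.72 CPM in these GFP+ libraries. The embryo RFP+ mean of 54.1 CPM was 21.02-fold the mean of that limit. The limit covers counting error only, so it gives no lower bound where a transcript is lost before counting. Embryo GFP+ libraries held 6189 to 8302 genes with a read, against 10263 to 13052 in embryo RFP+ libraries. In spheroids Sept6 was counted in both populations, from 0 through 33.97 to 56.7 CPM in GFP+ wells and from 70.5 through 98.2 to 148 CPM in RFP+ wells. No GFP+ well reached the lowest RFP+ well, and the only GFP+ well without a read was C9, where the next lowest stood at 11.1 CPM. The log2 fold change of RFP+ over GFP+ cells was 1.49 ± 0.09 in spheroids.

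The other members of the Sept6 subgroup were lower and, in embryo GFP+ cells, uneven. Sept8, a septin studied mostly in neurons, measured 180, 7.35, 0, 0 and 125 CPM in the 5 embryo GFP+ libraries and 21.1, 18.3, 2.53 and 14.3 CPM in the 4 embryo RFP+ libraries. These groups overlapped, since 2 GFP+ libraries had no read and 2 had the highest values. In spheroids Sept8 had a median of 9.85 CPM in GFP+ and 16.9 CPM in RFP+ wells, a log2 fold change of 0.60 ± 0.17. Sept10 ranged from 8.68 to 86.1 CPM in embryo GFP+ and from 19.4 to 47.1 CPM in embryo RFP+ libraries, and its log2 fold change of RFP+ over GFP+ cells was -0.23 ± 1.07 in the embryo and 0.50 ± 0.09 in spheroids.

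Sept7 (7-Sep), the one septin without a close relative and a part of nearly every rod, measured 981, 1028, 360, 1350 and 1029 CPM in the 5 embryo GFP+ libraries and 436, 521, 745 and 289 CPM in the 4 embryo RFP+ libraries. The groups overlapped through well C12, whose 360 CPM lay below 3 of the 4 RFP+ libraries. Spheroid wells ran from 293 through 447 to 582 CPM in GFP+ and from 393 through 514 to 669 CPM in RFP+ cells, with 28 of 38 GFP+ wells inside the RFP+ range. The log2 fold change of RFP+ over GFP+ cells was -0.97 ± 0.35 in the embryo and 0.16 ± 0.04 in spheroids, and whether these differ was not tested.

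Sept9, a septin known to bundle actin filaments, measured 198, 214, 19.8, 2.33 and 2.14 CPM in the 5 embryo GFP+ libraries. Wells A12 and B12 were high and the others low, while the 4 embryo RFP+ libraries lay between 58.3 and 81.9 CPM, inside that range. Spheroid wells had medians of 43.3 CPM in GFP+ and 72.4 CPM in RFP+ cells, a log2 fold change of 0.68 ± 0.06, and all 38 GFP+ wells were below the RFP+ median. Sept3, a septin best known from neurons, had 26.9, 0, 26.04, 0 and 1.07 CPM in the 5 embryo GFP+ libraries and 26.96, 48.5, 74.3 and 22.9 CPM in the 4 embryo RFP+ libraries. In spheroids its median was 18.04 CPM in GFP+ and 35.3 CPM in RFP+ wells, with a log2 fold change of 0.80 ± 0.15.

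At an adjusted p under 0.1 in edgeR's quasi-likelihood fit over all genes, 3 of 8 septins tested passed in the embryo (Sept6 and Sept11 higher and Sept2 lower in RFP+ cells), where 10.1% of all 8503 genes tested passed, 6.21% higher and 3.88% lower. In spheroids 8 of 8 passed (Sept2 lower and 7 higher in RFP+ cells), against 77.9% of 9940 genes, 37.8% higher and 40.1% lower. The same 3 septins did not overlap between the embryo groups, against 17.3% of all genes, and Sept6 and Sept11 did not overlap between the spheroid groups, against 2.01%. Sept4 and Sept5 had too few reads to be tested in either comparison. In the embryo Sept11 no longer passed with DESeq2, with its size factors in edgeR, at an adjusted p under 0.05, or without well G11, G12 or H11, at log2 fold changes of 0.75 to 1.01 over the alternatives. Sept7 passed with these size factors (-1.09), without the filter on low counts (-0.88) and without well C12 (-1.17) or G12 (-1.21). Because these contrasts chose the members, nothing is read from the counts.

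**Figure D2:**
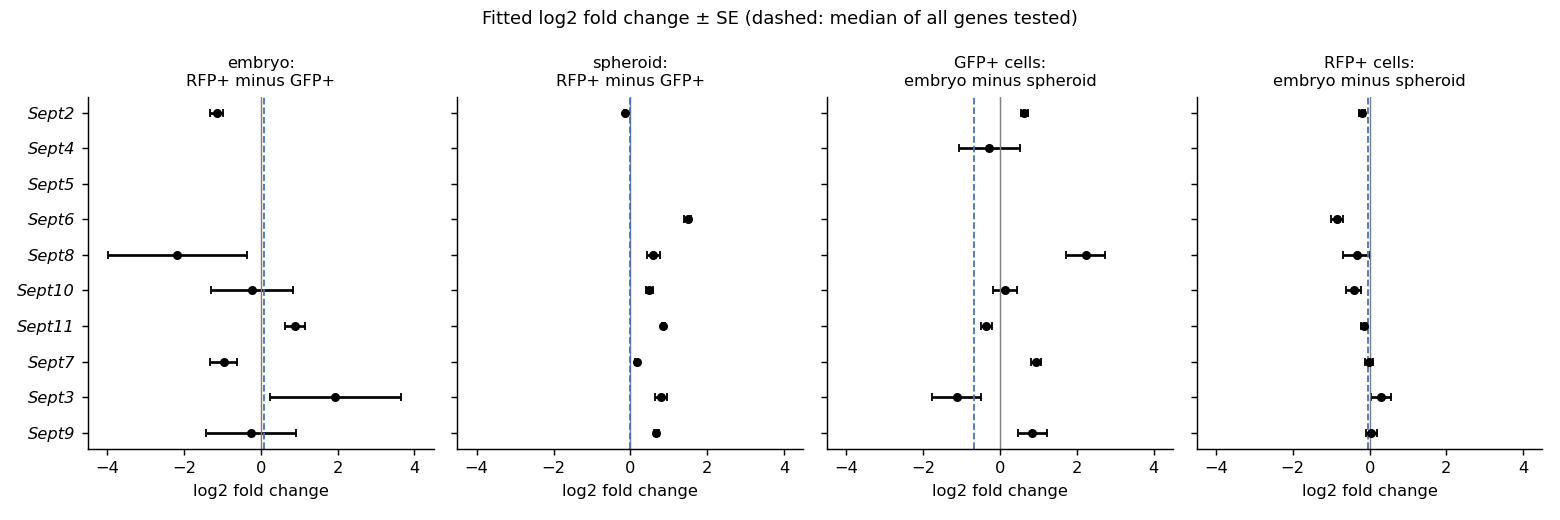
Fitted log2 fold change ± SE of the septins tested in each of 4 comparisons (horizontal axis), with the median of all genes tested as a dashed line and septins that did not pass the filter left blank. Sept6 is not drawn where embryo GFP+ cells, with no read of it, enter the comparison. In the embryo Sept2, Sept7, Sept8, Sept9 and Sept10 lie left of 0, and Sept3 and Sept11 right of 0. The bars of Sept8 and Sept3 are the widest there, and those of Sept9 and Sept10 cross 0. In spheroids all septins drawn but Sept2 lie right of 0.

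The ratio of Sept2 to Sept11 per kb of exon separated GFP+ from RFP+ cells in each source. In embryo GFP+ libraries it was 5.80, 3.49, 3.58, 3.75 and 8.13, and in embryo RFP+ libraries 1.49, 1.06, 1.01 and 0.933. In spheroids it ran from 1.66 through 2.27 to 5.34 in GFP+ wells and from 0.889 through 1.12 to 1.52 in RFP+ wells. The highest spheroid GFP+ value came from 9 and 2 reads in well C9, and the next was 3.60. With the length of the longest transcripts the medians were 4.204 and 1.16 in the embryo and 2.55 and 1.25 in spheroids. This ratio was formed from members whose differences were already known and is a description.

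**Figure D3:**
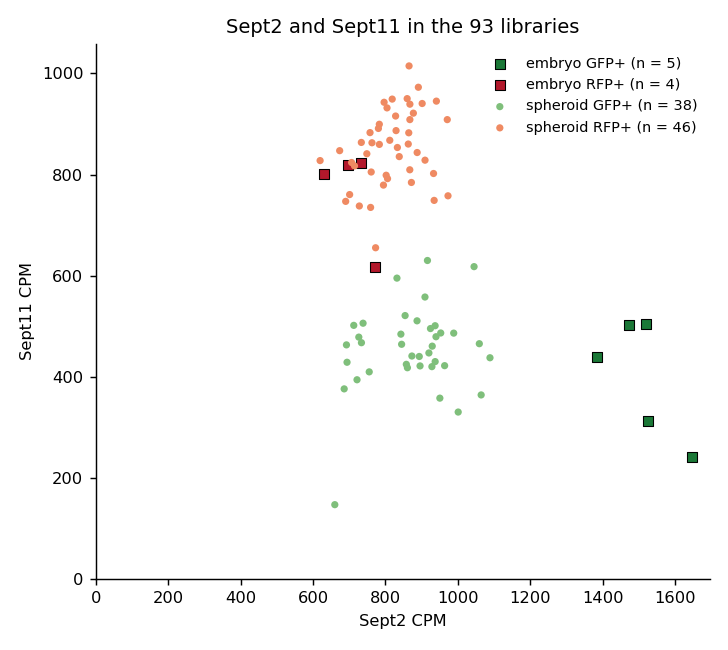
Sept11 CPM (vertical axis) against Sept2 CPM (horizontal axis) in all 93 libraries, with embryo libraries as squares and spheroid wells as circles. The 5 embryo GFP+ libraries lie at the right, between 1385 and 1647 CPM of Sept2, and the embryo RFP+ libraries lie next to the spheroid RFP+ wells.

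By subgroup, the Sept2 group made up 54.9% ± 7.89 (SD) of the summed septin level per kb in embryo GFP+ cells and 36.02% ± 3.72 in embryo RFP+ cells. The Sept6 group made up 18.8% ± 2.65 and 40.6% ± 4.99, and these ranges did not overlap, with a highest GFP+ value of 22.8% and a lowest RFP+ value of 36.1%. In spheroids the Sept2 group made up 49.96% ± 4.49 in GFP+ and 36.6% ± 2.18 in RFP+ wells, and the Sept6 group 29.1% ± 3.55 and 42.4% ± 2.51. Sept7 held 22.8% ± 7.87 and 16.9% ± 5.14 in embryo GFP+ and RFP+ cells and 17.1% ± 2.37 and 15.6% ± 1.47 in spheroids, so its groups overlapped in both sources. The Sept3 group held 3.57% ± 3.84, 6.52% ± 1.09, 3.85% ± 1.17 and 5.34% ± 0.890 in the same order. Within the Sept6 group Sept11 alone supplied 66.7% ± 26.1, 80.3% ± 6.28, 74.0% ± 8.66 and 75.7% ± 3.02. Each share depends on the rest of the sum. In spheroids Sept2 itself stood at 110 ± 14.5 CPM per kb in GFP+ and 102 ± 10.1 in RFP+ cells. Sept11 stood at 48.0 ± 8.78 and 90.0 ± 7.91 CPM per kb there.

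**Figure D4:**
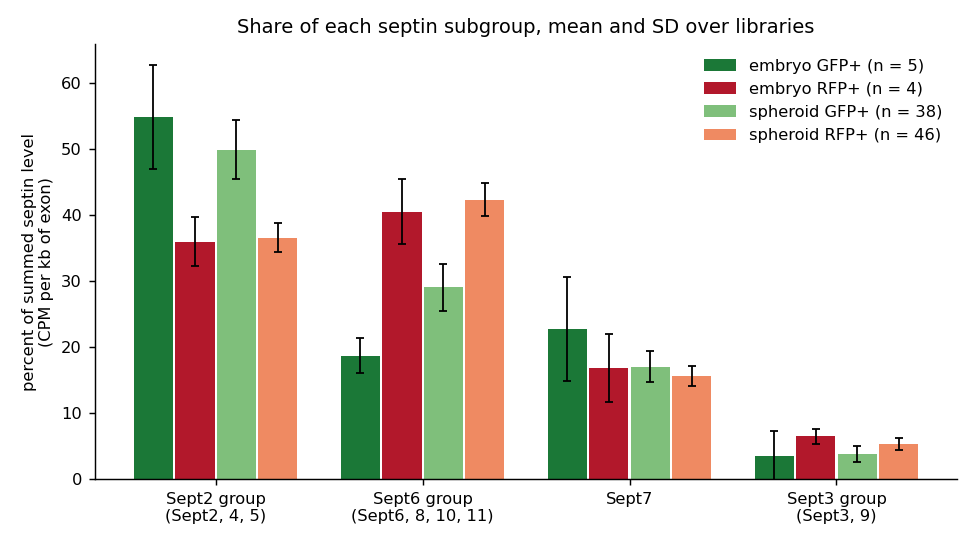
Mean percent of the summed septin level (CPM per kb of exon) held by each subgroup in the 4 groups, with SD bars over libraries that end at the axis where they would fall below 0. The share of the Sept2 group is larger in GFP+ cells and that of the Sept6 group in RFP+ cells of both sources.

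Between embryo and spheroid GFP+ cells the median log2 fold change of all genes tested was -0.67, so septin differences are given beside that shift. Sept2 was 0.63 ± 0.09 higher in the embryo on the log2 scale, and Sept7 0.94 ± 0.13. Sept9 (0.84 ± 0.37) and Sept8 (2.23 ± 0.52) were higher by the fit, but their medians went the other way. Sept9 had a median of 19.8 CPM in embryo and 43.3 CPM in spheroid GFP+ cells, and Sept8 had 7.35 and 9.85 CPM. The highest values of Sept8 were those of wells A12 and E12, and without A12 its log2 fold change was 1.37. Without well A12 the log2 fold change of Sept9 was 0.38 and without B12 it was 0.10, and it passed the threshold in neither case. Sept11 stood at -0.35 ± 0.13, which turned to 0.11 with DESeq2's size factors, where the median of all genes was -0.22. It no longer passed with total counts (-0.21) or without well A12 (-0.22) or E12 (-0.16). Sept3 passed, lower in the embryo, without well A12 (-1.85) or C12 (-1.79), and Sept4 without well B12, the one embryo GFP+ library with reads of it. Sept10 passed, higher in the embryo, with DESeq2 (0.58) and with its size factors in edgeR (0.57). Sept6 had no read in the embryo GFP+ libraries, and its spheroid GFP+ mean was 12.9-fold the mean limit of 3 reads per library. That limit covers counting error only. In all, 6 of 9 septins tested passed the threshold (4 higher and 2 lower in the embryo), against 68.0% of 11822 genes, 19.7% higher and 48.3% lower. The members were chosen with their levels in these groups known, so nothing is read from this count or from calls lost or gained. Sept2 alone did not overlap between the groups, against 6.08% of all genes, while Sept6 met at 0 through spheroid well C9.

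Between RFP+ cells of the embryo and of spheroids the differences of the most abundant septins were as follows. Sept11 differed by -0.14 ± 0.07 and Sept7 by -0.02 ± 0.11 on the log2 scale, and Sept9 by 0.05 ± 0.13. Sept6 was lower in the embryo at -0.84 ± 0.16, and its groups did not overlap, the embryo values ending at 61.9 CPM and the spheroid values starting at 70.5 CPM. Sept2 stood at -0.19 ± 0.08 and Sept10 at -0.41 ± 0.19. These 3 of 8 septins tested passed the threshold, all lower in the embryo, against 42.6% of 11147 genes, 20.1% higher and 22.5% lower. Here too the choice of members used these groups, so nothing is read from the count or from changes in it. Sept6 alone did not overlap, against 4.55% of all genes. Without well H11 Sept2 (-0.14) and Sept10 no longer passed. Without G12 Sept10 (-0.22) did not pass, while Sept7 (-0.29) and Sept11 (-0.19) did. The log2 fold change of Sept7 turned to 0.17 without H11. With DESeq2's size factors in edgeR neither Sept2 (-0.16) nor Sept10 (-0.38) passed, and with total counts Sept11 (-0.19) did. The comparisons across sources use the same libraries as those within a source and are not independent of them. In the comparisons across sources, source and plate column cannot be told apart.

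Correlations between septins across the 84 spheroid wells were mostly weak. With group means removed, Pearson's r of log2 CPM over the 15 pairs of the 6 septins with a median of at least 50 reads ran from -0.23 to 0.77, with a median of 0.26. The highest were Sept6 with Sept11 at 0.77 and Sept6 with Sept9 at 0.74. Without well C9, which had no read of Sept6 or Sept9, these became 0.46 and 0.07, and the 15 pairs ran from -0.13 to 0.46. Sept6 with Sept11 came to 0.22 in RFP+ wells alone and to 0.85 in GFP+ wells alone, or 0.56 in GFP+ wells without C9. The wells share a plate and differ in depth, and 7 pairs of RFP+ wells in neighbouring columns were closer to each other than any other pair.

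The genes most like the 3 most abundant septins over these wells were named by the same measure. For Sept2 they included Syncrip and Tmem55a, each at r = 0.50. For Sept7 they were B3galnt1 at 0.58, Ywhae at 0.55 and Paip2 at 0.55. For Sept11 they were 2610318N02Rik at 0.82, 0610007P14Rik at 0.80 and Dpysl2 at 0.80. Without well C9 the list for Sept11 became Elovl6 at 0.57, Cbx5 at 0.56 and Cenpf at 0.53. That for Sept2 then held Syncrip, Zfp207 and Ptp4a2, at 0.47 to 0.49, and that for Sept7 held B3galnt1 at 0.54, Psmb7 at 0.49 and Paip2 at 0.48.

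Genes that work with septins were taken from 3 lists: the Borg proteins, which bind septins under control of the GTPase Cdc42, with Cdc42 itself (6 genes), proteins of the cleavage furrow (21 genes) and other septin binding proteins (5 genes). In the embryo 4 of 19 furrow genes tested passed, 2 in each direction, beside 10.1% of all genes. Their median log2 fold change was 0.16 beside 0.09 for all genes. Rhoa, the GTPase that sets the contractile ring, fell in RFP+ cells (-1.16 ± 0.34, adjusted p = 0.059 in edgeR), from 380, 320, 257, 562 and 702 CPM in GFP+ to 184, 209, 240 and 191 CPM in RFP+ libraries. Kif23, a kinesin of the central spindle, fell too (-1.14 ± 0.37, adjusted p = 0.090 in edgeR), with well B12 of GFP+ cells inside the RFP+ range. The cytoplasmic actins rose, Actg1 by 0.87 ± 0.22 (adjusted p = 0.023 in edgeR) and Actb by 0.59 ± 0.18 (adjusted p = 0.080 in edgeR). Each of these 4 calls was lost under at least 2 of the alternatives, and without embryo RFP+ well G11 none of them was made. Wells were the replicates of this fit, and no label ties them to separate embryos. The gene lists were drawn up with earlier results of these data known, which limits these p-values and the one for spheroids below. Of the Borg list, 4 genes were tested and 0 passed, and of the other binding proteins 2 were tested and 0 passed.

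In spheroids 17 of 20 furrow genes tested passed, 13 higher and 4 lower in RFP+ cells, beside 77.9% of all genes (37.8% higher and 40.1% lower). Their median log2 fold change was 0.23 beside -0.02 for all genes. The largest differences were those of Birc5, Cdca8, Kif20a and Aurkb, of which Birc5, Cdca8 and Aurkb belong to the chromosomal passenger complex and Kif20a is a kinesin that moves this complex to the central spindle. Birc5 rose by 0.97 ± 0.06 on the log2 scale (adjusted p = 1.7e-25 in edgeR), from a median of 268 CPM in GFP+ to 537 CPM in RFP+ wells. Wells were the replicates here too, with no label of their culture, so this p-value measures spread between wells only. Population cannot be told apart from plate position in it. Cdca8 rose by 0.85 ± 0.06, Kif20a by 0.83 ± 0.11 and Aurkb by 0.82 ± 0.08, with ranges that overlapped for all 4 genes. Among the furrow genes named in the embryo, Kif23 (0.60 ± 0.11) and Actg1 (-0.40 ± 0.04) went the opposite way in spheroids. Rhoa (-0.31 ± 0.04) and Actb (0.15 ± 0.04) went the same way in both sources. Of 3 Borg genes tested, Cdc42ep4 rose by 0.70 ± 0.10 and Cdc42 fell by 0.27 on the log2 scale. All 3 other binding proteins tested were lower in RFP+ cells: the calcium sensor Stim1 at -1.34 ± 0.25, the microtubule protein Map4 at -0.67 ± 0.06 and Arhgef18 at -0.62 ± 0.15.

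Across sources, 17 of 21 furrow genes passed between embryo and spheroid GFP+ cells, 11 higher and 6 lower in the embryo, beside 68.0% of all genes (19.7% higher and 48.3% lower). Their median log2 fold change was 0.67 beside -0.67 for all genes. Between embryo and spheroid RFP+ cells 12 of 20 passed, 11 higher and 1 lower, beside 42.6% of all genes (20.1% higher and 22.5% lower). Their median was 0.28 beside -0.04 for all genes. The Borg list gave 2 higher and 4 lower of 6 in GFP+ cells and 1 higher of 5 in RFP+ cells, and the other binding proteins 3 lower of 4 and 1 lower of 3, beside the same shares of all genes. Among the genes called lower in embryo GFP+ cells, Cdc42ep2 and Cdc42ep3 (Borg list) and Stx1a and Stim1 (other binding proteins) had no read in any embryo GFP+ library. Those libraries held 6189 to 8302 genes with a read. For these genes, as for Sept6, a transcript lost before counting cannot be told apart from an absent one.

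The 3 septins outside the choice were near 0. Sept1 had a mean of 3.88 ± 6.65 CPM in spheroid GFP+ wells and at most 0.963 CPM as the mean of any other group, and its exons overlap Zfp553 on the opposite strand. Sept12 and Sept14 had no read in the 9 embryo libraries and means of at most 0.150 CPM in spheroids. The selenoprotein symbol 15-Sep had means of 523 ± 87.3 and 472 ± 70.9 CPM in embryo GFP+ and RFP+ cells and 352 ± 65.9 and 476 ± 40.8 CPM in spheroid GFP+ and RFP+ cells, a level that would add to a septin sum if all date-like Sep symbols were summed.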

How the data were processed

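Libraries were polyadenylated RNA of 10 sorted cells per well, amplified by PCR without molecular identifiers. Per the labels, reads were processed with Trimmomatic 0.36, HISAT2 2.0.4 and featureCounts 1.5.2 on mm10. The annotation and strand setting of the counting were not given in the sources used here. The authors deposited raw counts per gene symbol, with 93 libraries in 1 table.

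Date-like symbols were read back as septins. Members and gene lists were chosen with earlier results of these data known. Genes were filtered with filterByExpr (minimum count 10, minimum total 15), normalised by TMM and compared with edgeR 4.0.16 (quasi-likelihood test, Benjamini-Hochberg adjusted p under 0.1, R 4.3.3). The 4 comparisons were RFP+ against GFP+ cells in each source and embryo against spheroid in each population, each fitted on its own groups. DESeq2 1.42.0 was an alternative. CPM used TMM over all 93 libraries. Lengths are merged exons of GENCODE M21 on GRCm38. A floor of 3 counts per library stands for 0 and covers counting error only. Named partner genes are the 4 called genes of each list with the largest fold change in the embryo and in spheroids, and genes like a septin are the 3 with the highest r for each of the 3 most abundant septins, of which 1 is not reported here. On simulated counts with 200 genes changed by 2 on the log2 scale, the embryo comparison recovered 24 and the spheroid comparison 188. Fits were repeated with other size factors, without the filter, at an adjusted p under 0.05, without single libraries, with plate row as a covariate, and with near-identical wells summed. Of RFP+ wells, 7 pairs in plate columns 3 and 4 of the same row had a chi-square of 1.37 to 2.39 per degree of freedom between their counts, against 2.68 or more for every other pair. This exceeded sampling noise, and the wells were kept apart.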

Additional observations from a re-analysis of the deposited data

Results flagged for a closer look

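Of 30 sets of embryo values examined (each septin, their sum, the subgroup shares and the ratio of Sept2 to Sept11, in groups of 4 and 5), 3 held a library far from the others by Dixon's ratio. Chance flags about 1 in 20 sets. Sept4 stood at 25.1 CPM in embryo GFP+ well B12 and at 0 in the other 4 libraries. Sept11 stood at 617 CPM in embryo RFP+ well F12, against 801 to 822 CPM in the other 3 libraries. The sum of the 10 septins was 2440 CPM in embryo GFP+ well C12, against 3085 to 3309 CPM in the other 4 libraries.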

How the results depend on the processing

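Counts of septins called stayed within 1.5 times their main value under the alternatives tried, with an exception between embryo and spheroid RFP+ cells, where DESeq2's size factors left 1 call of 3. Leaving out single embryo libraries gave 2 to 4 septin calls in the embryo, 5 to 7 between GFP+ cells and 1 to 4 between RFP+ cells, where 1 remained without embryo RFP+ well H11. Partner genes called in the embryo numbered 4, with 1 at an adjusted p under 0.05, 7 without the filter, and 0 to 5 without single libraries (21 to 26 between GFP+ cells, 12 to 14 between RFP+ cells). Over all genes, 858 calls in the embryo became 1936 with DESeq2, 2000 without the filter and 613 to 1044 without single libraries, and 7747 in spheroids became 13109 without the filter. The ranges without single libraries were 8488 to 8608 between GFP+ cells and 4076 to 4426 between RFP+ cells. Between embryo and spheroid GFP+ cells Sept11 turned from -0.35 to 0.10 with DESeq2 and to 0.11 with its size factors in edgeR. These size factors moved the median of all genes from -0.67 to -0.22. With the longest transcript as length, the Sept6 group held 14.9%, 25.0% and 37.95% in embryo GFP+, spheroid GFP+ and spheroid RFP+ cells, Sept7 held 21.1% and 19.8% in spheroid GFP+ and RFP+ wells, and the Sept3 group 4.73% and 3.91% in embryo and spheroid RFP+ cells. Only the length used differs between these shares and the main ones. Why the other values moved was not tested. Sept4 and Sept5 had low counts and did not pass the filter in 3 or more comparisons. No paired analysis was possible because replicate numbers only name wells, and no label ties a well to an animal, culture or day.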
